A study of Homo sapiens with 2 samples.

Results

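Genes of the mitochondrial ribosome were compared on 2 Affymetrix arrays, 1 of CL1-0 cells stably transduced to express FDFT1 and 1 of CL1-0 cells stably transduced with a control vector. CL1-0 cells are a human lung adenocarcinoma line, and FDFT1 encodes squalene synthase, which commits the mevalonate pathway to sterols. Both cultures were selected with puromycin for 2 weeks and grown at 37 °C in 5% CO2, so vector delivery and selection were shared. No source used here names the vector's promoter or the number of clones. The members were all probe sets listed with a single gene whose symbol starts with MRPL or MRPS followed by a number. They came to 142 probe sets of 54675, for 77 genes of 19775. Of these genes 75 code for proteins, 48 of the large subunit (MRPL) and 27 of the small subunit (MRPS). The other members were an antisense RNA, MRPL20-AS1, and a pseudogene, MRPL45P2, and are given apart. Another 4 probe sets listed with an MRPL or MRPS gene and a further gene were not counted.

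The mitochondrial ribosome makes the few proteins that mitochondrial DNA encodes, nearly all of them core subunits of the respiratory chain and ATP synthase. Its ribosomal RNAs come from mitochondrial DNA, whereas its proteins are encoded in the nucleus, made in the cytosol and imported. The large subunit forms peptide bonds and the small subunit reads the messenger RNA. Some of the proteins have bacterial counterparts, and others were added in the mitochondrial lineage.

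Signals are MAS5 intensities as deposited, and differences are log2 values of FDFT1 minus control vector after centring of the arrays, which removed a shift of -0.11. The median signal over all probe sets was 12.1 on the FDFT1 array and 12.3 on the control array. A probe set counted as measured if it reached a signal of 12.2, the median of all values, on at least 1 array after centring. Each gene is given by the brightest of its measured probe sets. Each group has a single array, so the differences carry neither a p-value nor a replicate error. The error beside a difference is instead the spread between pairs of probe sets for 1 gene at similar brightness. It was 0.22 for mean log2 signals from 7 to 9, 0.16 from 9 to 11 and 0.097 above, and leaves out any variation between cultures. The labels describe the cells as of alveolar type II origin. Of 10 markers of that cell type 8 had a probe set listed with a single gene, and 5 were measured. None of these was above a signal of 58.8 on the FDFT1 array or 79.9 on the control array. SFTPD was among the unmeasured, with 2.03 on the FDFT1 array and 0.918 on the control array. For blood and immune cells, 4 of 6 markers were measured, and the 6 signals summed to 93.4 on the FDFT1 array and 90.8 on the control array. For fibroblasts and endothelium, 3 of 6 were measured, with sums of 129 on the FDFT1 array and 111 on the control array. A measured marker need only reach 12.2 on 1 array. The highest blood and immune signal was 40.6 on the FDFT1 array and 50.5 on the control array. For fibroblasts and endothelium the highest was 83.0 on the FDFT1 array and 65.5 on the control array. The part of these cell types in the results was not tested. The FDFT1 transcript was not analysed here and the labels were not checked against it.

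Transcripts of the protein-coding members were present on both arrays, and no member differed by much. All 75 protein-coding members were measured, through 132 of their 140 probe sets. Their signals ran from 197 through a median of 1255 to 5572 on the FDFT1 array, against 293, 1355 and 5635 on the control array. The lowest of these belonged to MRPL2 and the highest to MRPL3 on both arrays. By its brightest probe set, no member was at least 2-fold higher or lower with FDFT1, where 0.571% of the 12968 measured genes were higher and 0.578% lower. No member reached 1.5-fold either, against 3.91% of all measured genes higher and 3.28% lower. Brightness matters to this reading, since 72 members had a mean log2 signal of at least 9. Among the 3601 genes that bright, none was 2-fold different, 0.472% were at least 1.5-fold higher and 0.0555% at least 1.5-fold lower.

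**Figure D1:**
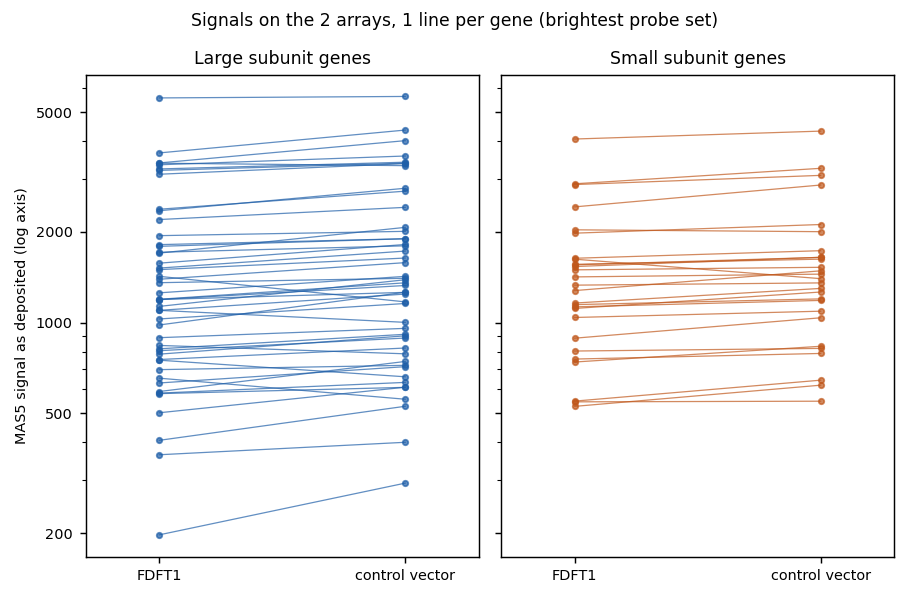
MAS5 signal as deposited (log axis) of each protein-coding member on the FDFT1 array (left point) and the control vector array (right point), 1 line per gene, with large subunit genes in the left panel and small subunit genes in the right one. The lines are nearly parallel and 67 of 75 slope upward to the control array, the shift that centring removes.

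As deposited, 67 of the 75 members had a lower signal on the FDFT1 array and 8 a higher one. Of all 12968 measured genes 8692 were lower, or 67%, a smaller share than among the members. The share among genes as bright as the members was not computed. After centring 37 members lay above 0 and 38 below, against 49.8% of all measured genes above and 50.2% below. Of the bright genes 53% were above 0 and 47% below. The median difference of the members was -0.011, and that of all measured genes -0.0013. The differences of the members had an SD of 0.14, compared with 0.32 over all measured genes and 0.17 over the genes of a mean log2 signal of at least 9. Within 0.2 of 0 lay 66 members (88%), 58% of all measured genes and 79.2% of the bright ones. A difference larger than the error of 1 probe set was found for 18 members, 7 higher and 11 lower. That is 24% of the members, whereas 33.1% of all measured genes and 33.4% of the bright ones passed the same limit. Only MRPL19, MRPL30 and MRPL2 lay past 2 errors, or 4%, against 7.25% of all measured genes and 8.58% of the bright ones.

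**Figure D2:**
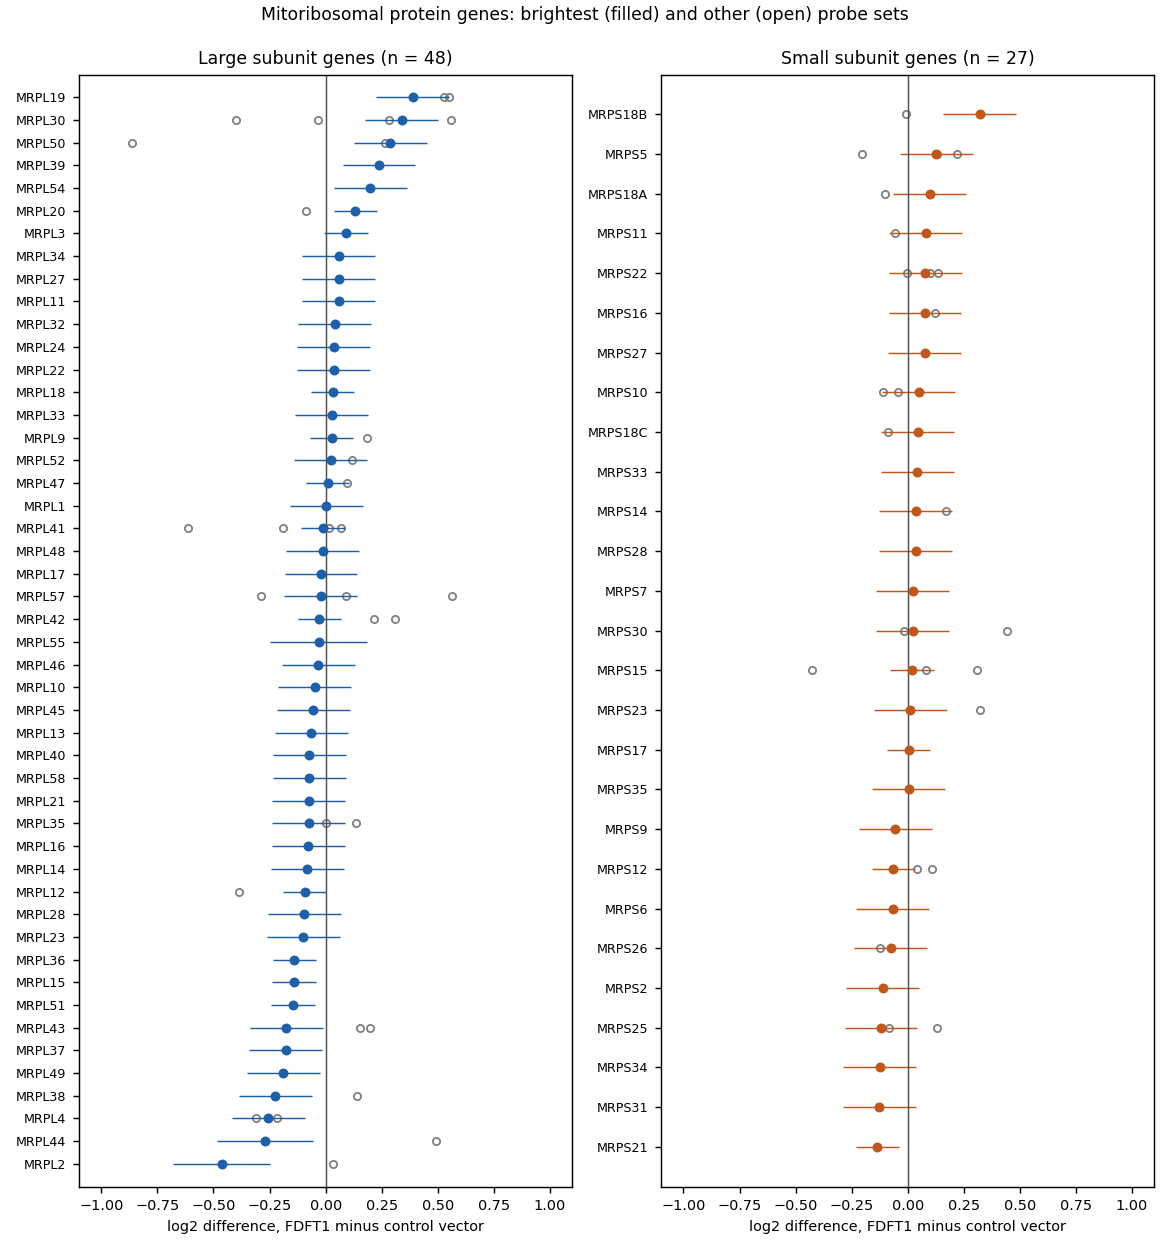
Log2 difference (FDFT1 minus control vector) of each protein-coding member, large subunit on the left and small subunit on the right, ordered by the brightest probe set (filled, with the probe set error as bar), and its other measured probe sets (open). Brightest probe sets span -0.46 for MRPL2 to 0.39 for MRPL19, and open points of the same gene often lie on the other side of 0.

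The large subunit genes sat slightly below 0 and the small subunit genes slightly above it. Of the 48 large subunit genes 19 lay above 0 and 29 below it (median -0.030, SD 0.15). Of the 27 small subunit genes 18 lay above 0 and 9 below it (median 0.023, SD 0.099). The large minus small difference in medians was -0.052. The genes are not replicates, and with 1 array per group this difference has no test. Its sign was opposite, at 0.082, when the second brightest probe set was used for the 33 genes with at least 2 measured. The small subunit median itself was -0.084 as deposited and -0.0070 after quantile normalization. Both subunits held members on each side of 0, and their ranges overlapped throughout.

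The symbols do not follow the subunits in every case, since MRPS30 and MRPS18A are parts of the large subunit. MRPS30 had a signal of 1635 on the FDFT1 array and 1733 on the control array, a difference of 0.023. With both genes moved, the large subunit median was -0.025 over 50 genes and the small subunit median 0.019 over 25. MRPS36 was not analysed here.

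Members with a bacterial counterpart and mitochondrion-specific members were set side by side. Of 47 genes with a counterpart 27 were above 0 (median 0.019), and of 28 mitochondrion-specific genes 10 were (median -0.031). With subunits taken by symbol, 4 of 18 mitochondrion-specific MRPL genes were above 0 (median -0.044), and 15 of 30 with a counterpart (median -0.0087). Among MRPS genes 6 of 10 mitochondrion-specific ones were above 0 (median 0.0075) and 12 of 17 with a counterpart (median 0.035). These MRPS counts include MRPS30 (mitochondrion-specific, 0.023) and MRPS18A (with a counterpart, 0.099), both parts of the large subunit. The classes were not computed with both genes moved. With 1 array per group these medians were not tested against each other.

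Among the large subunit genes higher with FDFT1, MRPL19 stood first and was alike on all its probe sets. MRPL19 is the counterpart of a bacterial protein at the interface of the subunits. Its signal was 1424 on the FDFT1 array and 1172 on the control array, a difference of 0.39 with an error of 0.16, or 1.31-fold. Its dimmer probe sets gave 44.0 on the FDFT1 array against 32.3 on the control array, and 28.3 against 21.1, differences of 0.55 and 0.53. All 3 thus lay on the same side, although the dim ones carry errors of 0.30 and 0.49.

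MRPL30, another protein with a bacterial counterpart, was less uniform. Its brightest probe set read 654 on the FDFT1 array and 556 on the control array, a difference of 0.34. The next gave -0.036 (551 with FDFT1, 608 with the control vector), and the 5 probe sets ran from -0.40 to 0.56. MRPL50, a mitochondrion-specific protein, was at 0.29 (750 with FDFT1, 661 with the control vector). Its second probe set was close, at 0.26 with 708 and 635, while the third was dim and lay at -0.87, with 8.69 on the FDFT1 array, under the floor, and 23.0 on the control array.

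MRPL39, which resembles part of a threonyl-tRNA synthetase, was at 0.24 on its 1 measured probe set (1098 with FDFT1, 1002 with the control vector). MRPL54, a mitochondrion-specific protein, was at 0.20 on a single probe set, with signals of 840 and 788 on the FDFT1 and control arrays. MRPL20, whose bacterial counterpart acts in assembly of the large subunit, was at 0.13 with an error of 0.097. As deposited its signals were 3383 on the FDFT1 array and 3320 on the control array. For MRPL9 both probe sets lay above 0, at 0.027 and 0.18, but as deposited the brighter one was lower with FDFT1 (3202 against 3383 with the control vector). The position of the brighter probe set above 0 therefore comes from centring. The other was higher as deposited too (1713 with FDFT1, 1623 with the control vector).

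On the lower side MRPL2 was the farthest from 0 and MRPL4 the most uniform. MRPL2, the counterpart of a core bacterial protein near the site of peptide bond formation, read 197 on the FDFT1 array and 293 on the control array. This is a difference of -0.46 with an error of 0.22, or 1.38-fold lower. Its other probe set, nearly as bright, was at 0.031 (219 with FDFT1, 230 with the control vector), so the gene's value rests on 1 of 2 probe sets. MRPL4 lines the tunnel through which the new peptide leaves. Its 3 probe sets gave -0.26, -0.22 and -0.31, all lower. The brightest read 982 on the FDFT1 array and 1261 on the control array, the next 914 and 1142, and the dimmest 125 and 167.

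MRPL44, an RNase III-like protein whose variants cause an infantile cardiomyopathy, was at -0.27 on its brighter probe set, with 406 on the FDFT1 array and 527 on the control array. The other lay at 0.49, with 137 and 105, and is an _x_at probe set, which can match related sequences. MRPL43 was likewise split, at -0.18 (502 with FDFT1, 610 with the control vector) on one probe set and at 0.15 and 0.20 on the others. MRPL38, with a fold like that of phosphatidylethanolamine-binding proteins, was at -0.23 (590 with FDFT1, 743 with the control vector), while its other probe set was near the floor at 12.9 and 3.67. The probe sets of these 3 genes do not give 1 direction.

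MRPL49 at -0.19 (1132 with FDFT1, 1388 with the control vector), MRPL37 at -0.18 (1701 and 2071) and MRPL51 at -0.15 (3659 and 4358) had 1 measured probe set each. All 3 are mitochondrion-specific. MRPL12, which forms the stalk that recruits translation factors, was at -0.093 (2379 with FDFT1, 2731 with the control vector), within its error of 0.097. MRPL58, a peptidyl-tRNA hydrolase built into the large subunit, was at -0.074 with 630 on the FDFT1 array and 714 on the control array.

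In the small subunit MRPS18B alone lay more than 0.2 from 0. MRPS18A, MRPS18B and MRPS18C are paralogs related to 1 bacterial protein, and all 3 are mitochondrial ribosome subunits. MRPS18B read 1624 on the FDFT1 array and 1399 on the control array, a difference of 0.32 with an error of 0.16. Its second probe set read 1030 and 1114 and lay at -0.0077. MRPS18A was at 0.099 and -0.10 on probe sets of similar brightness, the first with 546 on the FDFT1 array and 548 on the control array. MRPS18C was at 0.044, with 757 and 790. No paralog had more than 1 probe set above 0 among those measured.

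MRPS5, a conserved protein of the small subunit, was at 0.13 on its brightest probe set (2032 with FDFT1, 2004 with the control vector) and at -0.21 on the next. MRPS16 and MRPS14, also conserved, lay above 0 on both of their probe sets, at 0.077 and 0.12 for MRPS16 and at 0.037 and 0.17 for MRPS14. The signals of the brighter probe sets were 804 with FDFT1 against 821 with the control vector for MRPS16, and 1040 against 1091 for MRPS14. As deposited these brighter probe sets were therefore lower with FDFT1. The dimmer ones were higher, at 362 with FDFT1 against 358 with the control vector for MRPS16, and 51.1 against 48.9 for MRPS14. MRPS27, an RNA-binding pentatricopeptide repeat protein, was at 0.076 with 1418 on the FDFT1 array and 1448 on the control array. MRPS31, a mitochondrion-specific protein, gave -0.13 on both of its measured probe sets, with 527 against 620 and 507 against 596. MRPS26 was at -0.075 (1114 with FDFT1, 1263 with the control vector) and its dim second probe set at -0.13.

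The other probe sets of a gene set a limit on these readings. Of 33 members with at least 2 measured probe sets, 17 had the same sign on the brightest and the second brightest. Across these genes the differences of the pair correlated with a Pearson r of 0.11, and with 0.29 over the 13 genes whose second probe set was also bright. The points share the 2 arrays, and genes are not replicates. All measured probe sets lay above 0 for 7 members and below 0 for 4. The same counts over all genes with at least 2 measured probe sets were not computed. Neither these counts nor the 17 pairs are therefore read as a trait of the members. The remaining 42 members had 1 measured probe set.

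**Figure D3:**
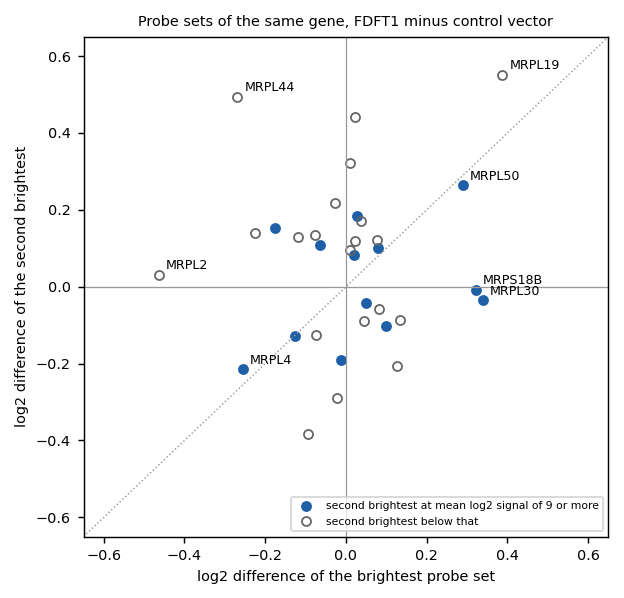
Log2 difference (FDFT1 minus control vector) of the second brightest probe set (vertical axis) against that of the brightest (horizontal axis) for 33 members, filled where the second reached a mean log2 signal of 9. MRPL19, MRPL50 and MRPL4 lie near the dotted line of equality, while MRPL44 at -0.27 and 0.49 and MRPL2 at -0.46 and 0.031 do not.

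The antisense RNA MRPL20-AS1 was at 0.12 with 156 on the FDFT1 array and 155 on the control array. The pseudogene MRPL45P2 was not measured. Of 5 mitoribosomal proteins with other names, which are not members by symbol, 4 were measured, and 2 were higher and 1 lower by more than the error of 1 probe set. DAP3, a GTP-binding protein of the small subunit, was at 0.19 (3102 with FDFT1, 2925 with the control vector) with 1 of 3 probe sets above 0, and at -0.29 as the mean of the 3. PTCD3, a pentatricopeptide repeat protein of the small subunit, was at 0.20 with 2 of 4 above 0. CHCHD1 of the small subunit was at -0.11 and GADD45GIP1 of the large subunit at -0.20 (948 with FDFT1, 1175 with the control vector), each on 1 probe set.

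None of the measured genes for mitochondrial translation factors, ribosome assembly, or mitochondrial transcription and DNA maintenance was 2-fold different. Over all measured genes 0.571% were at least 2-fold higher and 0.578% lower, so lists of this size would hold few such genes or none. Of 14 measured translation factors 5 lay above 0 and 9 below it (median -0.071). MTIF3, an initiation factor, was the lowest at -0.51 (241 with FDFT1, 370 with the control vector, error 0.22), on 1 probe set. MTFMT, which formylates the initiator methionyl-tRNA, was at -0.30 (272 with FDFT1, 360 with the control vector). The initiation factor MTIF2 was at 0.059, and LRPPRC, which stabilises mitochondrial messenger RNAs, at 0.046 with 4 of 4 probe sets above 0. As deposited the brightest probe set of each was lower with FDFT1.

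Of 27 measured assembly genes 16 were above 0, with a median of 0.027. MTERF4 and MTERF3, which act on mitochondrial ribosomal RNA and ribosome assembly, were both at 0.24, each with an error of 0.22. MTERF4 had 2 of 4 probe sets above 0, and MTERF3 had 1 probe set. MRM1, which methylates the large subunit ribosomal RNA, was at -0.34 (120 with FDFT1, 164 with the control vector), and the mitochondrial protease LONP1 at -0.24. For mitochondrial transcription and DNA maintenance 6 of 9 genes were above 0, with a median of 0.19, or 0.081 as deposited. The gene at that median had an error of 0.22, with 1 of 2 probe sets above 0. TFB2M, a transcription initiation factor, was at 0.30 (1632 with FDFT1, 1432 with the control vector) with both probe sets above 0. TFAM, which packages mitochondrial DNA, was at 0.28 with 2 of 4 above 0, while the polymerase POLRMT was at -0.25 with 1 of 2 above 0 and MTERF1 at -0.34. The 62 measured cytosolic ribosomal proteins, a list taken by symbol, had a median of 0.0015 with 33 above 0 and a range of -0.56 to 1.31.

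**Figure D4:**
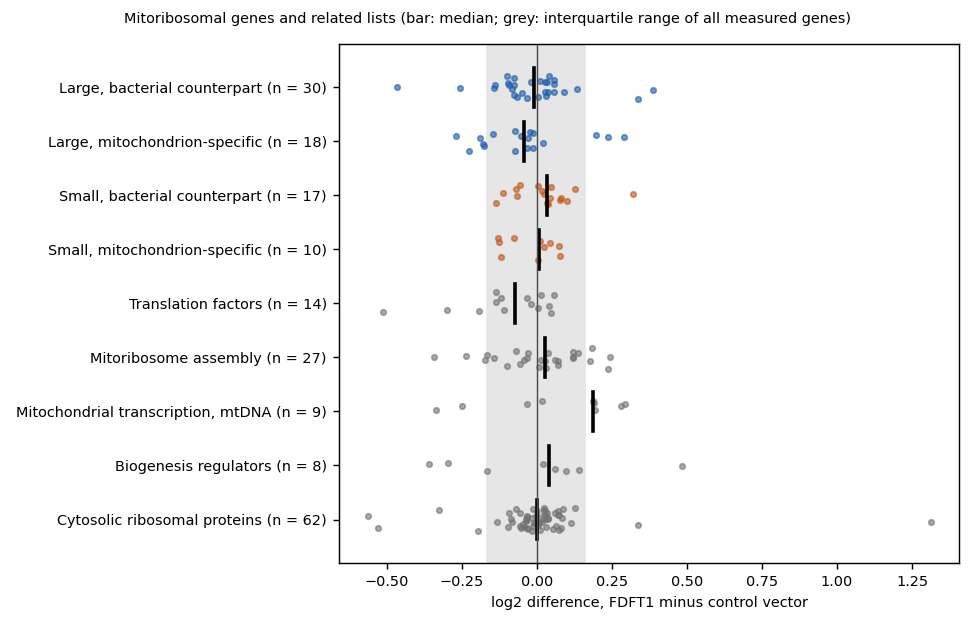
Log2 difference (FDFT1 minus control vector) of each gene (points) and the median (bar) for 4 classes of mitoribosomal genes and 5 related lists, with the interquartile range of all measured genes shaded. All medians except that of the mitochondrial transcription and DNA list, 0.19, lie inside the shaded range. That range describes single genes and is no measure of how far the median of a list varies. The 4 classes take the subunits by symbol.

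Promoter sequences were set beside these values because ETS-family factors, YY1 and NRF1 are known regulators of nuclear genes for mitochondrial proteins. RefSeq windows (GRCh38.p14) of 250 bases before to 50 bases after the start were matched for 67 of the 75 members, 1 window per gene. The letters CCGGAAG, an ETS core, were found on either strand in 28 of 67 windows (41.8%), against 14.2% of 15843 protein-coding genes. The letters AAGATGGC, a YY1 core, were found in 19 (28.4%), against 3.91%. The NRF1 letters GCGCATGC were found in 6 (8.96%), against 4.26%, and a longer NRF1 form with 1 free position, which shares letters with it, in 8 (11.9%), against 8.58%. The TATA box letters TATAAA were found in 2 (2.99%), against 9.63%. ETS and YY1 matches stood together in 8 windows and overlapped in none. A match is a description of the letters and not a bound site.

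The windows shown are those of the 2 highest and the 2 lowest members that hold an ETS or YY1 match within 170 bases before to 30 bases after the start, with the match in capitals. MRPL30 (difference 0.34) lies at chr2:99181014-99181213, plus strand, MRPL54 (0.20) at chr19:3762512-3762711, plus strand, MRPL38 (-0.23) at chr17:75904855-75905054, minus strand, and MRPL43 (-0.18) at chr10:100987468-100987667, minus strand, all in GRCh38.p14. The match is an ETS core in MRPL30, MRPL54 and MRPL43, read on the opposite strand in MRPL30 and MRPL54, and a YY1 core in MRPL38.
MRPL30: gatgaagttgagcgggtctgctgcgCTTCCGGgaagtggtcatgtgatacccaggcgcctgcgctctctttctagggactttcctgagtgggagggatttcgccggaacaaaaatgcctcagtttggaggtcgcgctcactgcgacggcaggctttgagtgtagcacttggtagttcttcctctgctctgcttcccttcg
MRPL54: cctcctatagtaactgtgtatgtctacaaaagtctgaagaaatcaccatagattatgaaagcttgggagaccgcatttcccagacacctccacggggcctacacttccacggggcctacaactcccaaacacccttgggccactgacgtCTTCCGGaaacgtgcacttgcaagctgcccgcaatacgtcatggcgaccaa
MRPL38: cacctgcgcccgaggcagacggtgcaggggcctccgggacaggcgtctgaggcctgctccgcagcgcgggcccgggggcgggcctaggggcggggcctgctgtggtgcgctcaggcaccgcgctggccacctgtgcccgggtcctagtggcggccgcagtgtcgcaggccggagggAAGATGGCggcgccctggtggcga
MRPL43: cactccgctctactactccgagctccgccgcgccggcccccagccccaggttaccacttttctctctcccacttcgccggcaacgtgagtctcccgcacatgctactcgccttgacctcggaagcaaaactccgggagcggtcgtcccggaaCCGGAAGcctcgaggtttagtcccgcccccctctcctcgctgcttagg
Members on both sides of 0 thus carried the ETS letters.

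Members with the ETS or YY1 letters, and members without them, lay on both sides of 0. The 28 members with the ETS letters had a median of 0.010 and 15 were above 0, compared with 0.0044 and 21 of 39 without them. With the YY1 letters 12 of 19 were above 0 (median 0.023), and without them 24 of 48 (median -0.0040). With the NRF1 letters 5 of 6 were above 0 (median 0.038) but with the longer NRF1 form 2 of 8 (median -0.038), so the side depended on the letters searched. Of 9 genes of regulators of mitochondrial biogenesis 8 were measured, and 5 lay above 0 with a median of 0.041. GABPA, an ETS-family factor, was at 0.48 (288 with FDFT1, 222 with the control vector, error 0.22) with 1 of 2 probe sets above 0. NRF1 was at -0.36 (120 with FDFT1, 165 with the control vector) with 1 of 5 above 0. The coactivators PPRC1 and PPARGC1B were at -0.30 and 0.14. Each of these is a difference between 2 arrays.

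**Figure D5:**
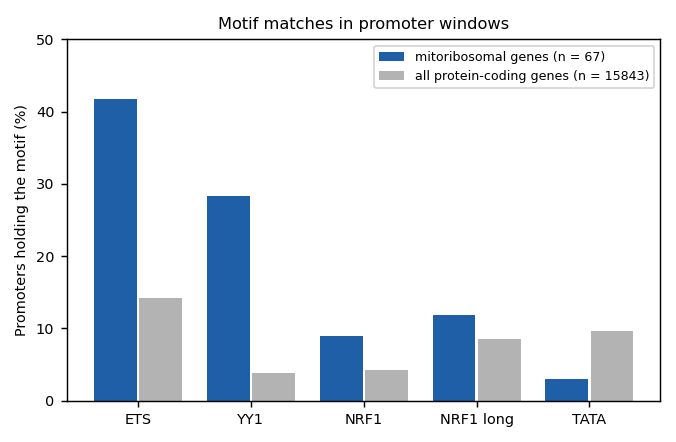
Share of promoter windows (percent) that hold each motif on either strand, for 67 mitoribosomal genes (left bar of each pair) and all 15843 protein-coding genes with a window (right bar). The ETS letters stand in 41.8% against 14.2%, and the YY1 letters in 28.4% against 3.91%.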

How the data were processed

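RNA of 1 culture with the FDFT1 vector and 1 with the control vector was measured on 1 array each, labelled from 6 µg of total RNA per the labels' protocols. The authors deposited intensities made with MAS5, per the submitters' processing notes, and the values are on a linear scale. MAS5 corrects each probe by its mismatch partner and applies 1 scaling factor per array, so a shared change of most genes would be removed. No source used here gives its version, its scaling target or any detection calls. The 62 control probe sets were set aside. Arrays were centred on the median log2 difference over probe sets at or above 12.2 on both, the shift being split equally between them, and lower values were then set to that floor. Names came from the platform annotation (1 gene for 41091 probe sets, several for 1801, none for 11721), of which 41037 matched GRCh38.p14 identifiers and no symbol changed.

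Members and lists were chosen with earlier results of these data known. The named genes are the 8 highest and 8 lowest members, up to 4 each way with all of at least 2 probe sets on 1 side, 9 fixed individually, and up to 2 each way of each other list. MRPL3, MRPL45P2, MRPL20-AS1 and SFTPD fall outside this rule and were picked with their values in view. Probe set errors are the SD between the 2 brightest probe sets of a gene divided by the square root of 2. The tools were matplotlib 3.10.9, statsmodels 0.14.6 (for loess), pandas 2.3.3, numpy 2.4.6 and Python 3.11.15, and the steps were tested on simulated data. The number of arrays limits the precision.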

Additional observations from a re-analysis of the deposited data

How the results depend on the processing

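No member was 2-fold different under any alternative run, nor at thresholds of 1.5-fold or 3-fold. Values as deposited moved every median down, to -0.12 for all members, -0.14 for the large subunit, -0.084 for the small subunit, -0.18 for translation factors and -0.079 for assembly genes, and the median of all measured genes was then -0.11. Quantile normalization gave -0.035 for all members and -0.0070 for the small subunit. For assembly genes the mean of all probe sets gave -0.0075, and leaving out _x_at and _s_at probe sets gave -0.037. The second brightest probe set, an alternative chosen after seeing the data, gave 0.095 for all members, 0.12 for the large subunit and 0.082 for large minus small, over fewer and dimmer probe sets. Under the alternatives other than that one the large subunit median stayed below that of the small subunit, at -0.021 to -0.052. Values as deposited and the other floors gave the main value of -0.052 and could not have changed it. A constant shift cancels in the difference, and the brightest probe set of every member lay above each floor. The mean of all probe sets and leaving out _x_at and _s_at probe sets each gave -0.021. Of 317 values of 47 single genes under alternatives, 290 stayed within the probe set error and 27 did not. Many of them could hardly have moved. Dropping or raising the floor moved 0 of 47, and values as deposited differ by the constant shift of -0.11. Genes with 1 measured probe set keep their value under the mean. The count that stayed is therefore no measure of robustness. Of those that moved, 15 came from the mean of all probe sets, which put MRPL44 at 0.11, MRPL43 at 0.059, MRPL50 at -0.10 and MRPL2 at -0.22. These means take in the other measured probe sets of each gene, such as the one at -0.87 for MRPL50 and the one at 0.49 for MRPL44. Why the probe sets of a gene differ was not tested. No paired analysis was possible because each group has 1 array.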

Other observations

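Some mitoribosomal genes start next to a gene on the opposite strand. In the RefSeq starts (GRCh38.p14), 20 members had a protein-coding neighbour that starts head to head within 1000 bases, in 19 pairs, and both genes were measured in 18. The differences had the same sign in 11 of these pairs and opposite signs in 7, a description over 2 arrays with no test. The same shares over all genes were not computed, so neither count is read as a trait of the members. MRPL30 (0.34) and its neighbour MITD1 (0.18, with 957 on the FDFT1 array and 909 on the control array) start 126 bases apart. MRPL50 (0.29) and ZNF189 (0.21) start 233 bases apart. MRPS12 (-0.065) pairs with SARS2, the mitochondrial seryl-tRNA synthetase (-0.058), at 181 bases, and MRPL49 (-0.19) with FAU, a cytosolic ribosomal protein precursor (-0.030), at 49 bases. MRPL46 (-0.033) and MRPS11 (0.081), a large and a small subunit gene, start 320 bases apart. The pairs MRPS18B and PPP1R10 (0.32 and -0.19), MRPL54 and APBA3 (0.20 and -0.36), and MRPL37 and CYB5RL (-0.18 and 0.40) had opposite signs. These pairs were chosen after their values were seen.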
